A study of Homo sapiens with 12 samples.

Results

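COV362 is an established human line of high-grade serous ovarian carcinoma with a mutant BRCA1, and the results below compare COV362 cells given 20 nM prexasertib with COV362 cells given the DMSO vehicle. The comparison uses 6 of the 12 libraries of the series, chosen by their labels: 3 DMSO libraries and 3 prexasertib libraries, each lettered A, B and C. The other 6 libraries come from PEO1, a second line of the same carcinoma type, under the same agents and dose. All cells were grown in serum medium with insulin, and RNA was column-extracted. The labels do not give the length of treatment, nor whether the letters mark separate cultures, so p-values measure only the spread between these samples, which may be technical.

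Prexasertib inhibits the checkpoint kinases CHK1 and CHK2. CHK1, activated by ATR when DNA replication stalls, restrains the CDC25 phosphatases, and so holds back CDK activity, origin firing and entry into mitosis. Serous ovarian carcinoma cells usually lack working p53 and often carry defects of homologous recombination, and inhibitors of this checkpoint are used in them to raise replication stress.

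The COV362 libraries held 9390790 to 18262805 counts, the lowest and the highest both with DMSO. Of 26485 genes in the table, 13302 had enough counts in these 6 libraries to be tested and 7691 had 0 counts in all of them. Values per library are counts scaled to a common library size (CPM), and every fold change is on the log2 scale with its standard error (SE). Libraries that share a letter deviated from their group means together, with correlations of 0.494 for A, 0.524 for B and 0.171 for C, and these exceed 0.1, so the letter entered the fit as a block. Correlations between libraries of different letters ran from -0.528 to 0.182, and the highest of them, between DMSO B and prexasertib C, was above the value for letter C. The first principal component (46.4% of the variance) separated the letters and the second (26.0%) separated the treatments, with the DMSO libraries from -42.2 to -8.90 and the prexasertib libraries from 20.2 to 22.6. Over genes, the deviation of a library from its group followed exon length, with rank correlations of -0.461 and -0.417 in the A libraries, 0.482 and 0.410 in the B libraries and 0.108 and 0.134 in the C libraries; a fit with a correction for exon length was run as an alternative, and its count is given for each list where it moved a direction of at least 3 calls, in either fit, by over 1.5 times.

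With prexasertib, members of the immediate early, cytokine, interferon, stress and histone groups were higher in COV362, and genes that were lower included many long genes. In edgeR's quasi-likelihood test with Benjamini-Hochberg adjustment over all tested genes, 1849 genes (13.9%) passed an adjusted p of 0.05 and are called changed: 761 higher (5.72%) and 1088 lower (8.18%). The split was 768 and 807 with the exon length correction, and 1257 and 1211 without pair A. Each count of list members below is to be read beside the 5.72% higher and 8.18% lower of all tested genes. Most changes were small. The median fold was 1.401 among genes called higher and 0.734 among those called lower, and 124 genes (0.932%) rose and 76 (0.571%) fell at least 2-fold, while the median log2 fold change of all tested genes was -0.02. The groups did not overlap for 439 of the genes called higher (3.3% of tested genes) and 551 of those called lower (4.14%). Over all tested genes, called or not, they did not overlap for 925 (6.95%) that were higher and 1068 (8.03%) that were lower. Just inside the threshold lay CMIP at -0.37 and TLCD1 at 0.60 (adjusted p = 0.0499 for both), and just outside it UNG at -0.21 and LOC90784 at 0.44 (both 0.0501).

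The number of calls rests on the pairing of the letters. Without the letter as a block 10 genes were called, 8 higher and 2 lower, although the fold changes of these genes hardly moved. Among them were EGR1, ATF3, IL11, CXCL8, HIST1H1C, PPP1R15A and SAT1, a polyamine acetyltransferase, which were higher, and PTGIS, prostacyclin synthase, and CDH6, which were lower. SAT1 and PTGIS were singled out after their values were seen. SAT1 stood at 19.5, 18.9 and 22.1 CPM in DMSO libraries A, B and C and at 43.97, 53.3 and 46.7 CPM with prexasertib. Leaving out 1 pair gave 2468 calls without A, 1249 without B and 666 without C.

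**Figure D1:**
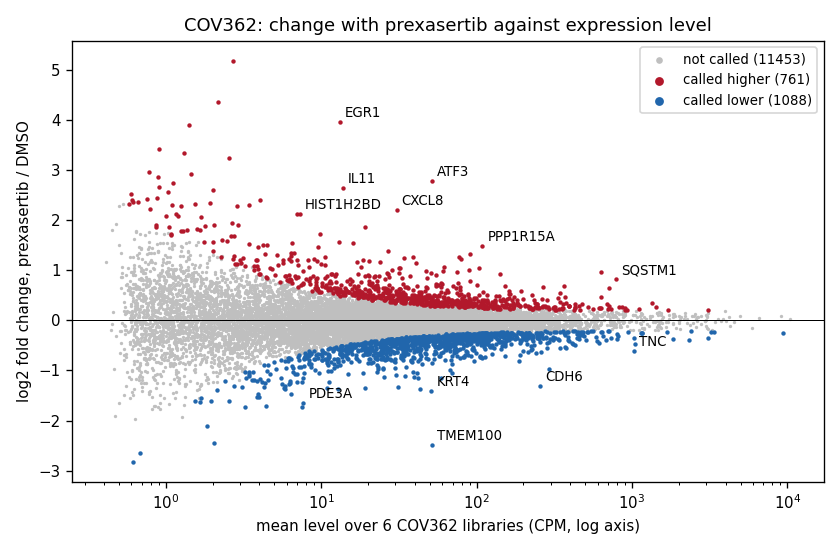
Each point is 1 of the 13302 tested genes, with its mean level over the 6 COV362 libraries (CPM, log axis) on the x axis and its log2 fold change, prexasertib over DMSO, on the y axis; red genes were called higher (761) and blue genes lower (1088). EGR1, ATF3, IL11 and CXCL8 stand above the other labelled genes and TMEM100 below them. TNC and SQSTM1, with means of 1024 and 789 CPM, changed by -0.62 and 0.82.

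The libraries carried some markers of a Mullerian epithelial carcinoma line, while others were low. PAX8 stood between 72.5 and 108 CPM, and the keratins KRT7, KRT8 and KRT18 stood at 623 CPM or more in every library. CDH1, which encodes E-cadherin, was near 0, with 29 counts over the 6 libraries. The 13 ovarian markers summed to 2277 to 2828 CPM with DMSO and 2269 to 3508 CPM with prexasertib, mostly from KRT7, KRT8 and KRT18. Lower levels were seen for WT1 (4.81 to 8.16 CPM), FOLR1 (4.02 to 6.39), MSLN (3.72 to 9.04) and EPCAM (6.32 to 13.2). KRT19 (6.68 to 14.4 CPM) and WFDC2 (10.3 to 21.5) were low as well. Of the 6 immune markers, CD3E had 0 counts, PTPRC and LYZ had 1 count each, and CD68, a lysosomal membrane protein that macrophages carry in quantity, made up nearly the whole sum of 30.4 to 40.8 CPM with DMSO and 48.9 to 58.8 CPM with prexasertib. The fibroblast genes DCN and LUM had 0 counts, and the 7 fibroblast markers summed to 7.98 to 9.87 CPM with DMSO and 6.80 to 9.35 CPM with prexasertib. Endothelial markers summed to 77.9 to 93.0 CPM with DMSO and 52.7 to 54.7 CPM with prexasertib, mostly from CDH5, a cadherin called lower (log2 fold change -0.70 ± 0.10, adjusted p = 3.38e-05). The 3 mesothelial markers summed to 19.5 to 22.01 CPM with DMSO and 10.5 to 15.7 CPM with prexasertib, mostly from UPK3B (log2 fold change -0.57 ± 0.16, adjusted p = 0.0199), which was not called without pair B (adjusted p = 0.188) or pair C (0.117).

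Of the 2 kinases the drug inhibits, the mRNA of CHEK2 was called lower and that of CHEK1 was not called. CHEK1, at chr11:125625136-125676255 (hg38), stood at 66.1, 58.7 and 54.3 CPM in the DMSO libraries and 53.5, 54.3 and 52.1 CPM in the prexasertib libraries, with a log2 fold change of -0.16 ± 0.10 (adjusted p = 0.321). CHEK2, at chr22:28687743-28741834, stood at 17.4, 16.6 and 19.3 CPM with DMSO and 13.3, 11.7 and 11.97 CPM with prexasertib. The CHEK1 groups overlapped, and the 3 treated CHEK2 values lay below the 3 DMSO values. The CHEK2 change of -0.53 ± 0.16 was called (adjusted p = 0.0254) but not without pair B (0.0857) or pair C (0.387). WEE1, the kinase that puts the inhibitory phosphate on CDK1, changed by 0.13 ± 0.11 (adjusted p = 0.518), was called higher without pair A (0.0336) and had the opposite sign, uncalled, without pair B. CDC25A, the phosphatase whose degradation CHK1 promotes, changed by -0.17 ± 0.09 (adjusted p = 0.253), with all 3 treated values (58.1, 67.5 and 66.4 CPM) below the DMSO values (71.97, 72.1 and 71.6 CPM).

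Among the 25 genes of the ATR and CHK1 checkpoint list, all tested, 5 fell and 1 rose, beside 8.18% and 5.72% of all tested genes. The list's median log2 fold change was -0.03. Those that fell besides CHEK2 were ATM, the kinase of the double-strand break response (-0.49), CLSPN, the mediator that presents CHK1 to ATR (-0.36), RPA1, a subunit of the single-strand binding complex (-0.36), and TIMELESS, a fork protection protein (-0.29). The gene that rose was RAD9A (0.50), a subunit of the 9-1-1 clamp, which was not called without pair A (adjusted p = 0.131) or pair C (0.111). The 5 lower calls became 2 without pair B, 0 without pair C and 2 with the exon length correction. The 1 rise became 3 without pair A.

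Of 48 tested genes in the E2F and DNA replication list 13 (27.1%) fell and 1 rose, with a median of -0.19, beside 8.18% lower of all tested genes. CCNE2, a cyclin that activates CDK2 at the start of S phase, stood at 15.6, 19.01 and 14.8 CPM with DMSO and 5.52, 10.3 and 10.6 CPM with prexasertib. All treated values lay below the DMSO values, and the change was -0.91 ± 0.19 (adjusted p = 0.00154). PRIM2, the large subunit of primase, went from 54.01, 50.8 and 49.5 CPM to 27.4, 39.9 and 35.7 CPM (-0.58 ± 0.12, adjusted p = 0.00111). GINS1, a subunit of the replicative helicase (-0.55), POLA1, the catalytic subunit of polymerase alpha (-0.46), and RRM1 and RRM2, the subunits of ribonucleotide reductase (-0.35 and -0.34), fell as well. GINS3 rose (0.38). CCNE1, the other cyclin E, changed by -0.23 ± 0.11 (adjusted p = 0.189). The 13 lower calls became 4 without pair C, and were 15 with the exon length correction.

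Of the 35 genes of the G2/M and mitosis list 7 fell and 3 rose, with a median of -0.03, beside 8.18% lower and 5.72% higher of all tested genes. CDC20, the activator of the anaphase-promoting complex, at chr1:43358955-43363202, stood at 596, 478 and 511 CPM with DMSO and 807, 619 and 758 CPM with prexasertib. The treated values were all higher, and the change was 0.46 ± 0.07 (adjusted p = 4.73e-05). KIF2C, a microtubule depolymerase of the centromere (0.32), and HMMR, a spindle assembly protein (0.28), rose too. CCNA2, the cyclin of S phase and G2, went the other way, from 83.01, 102 and 79.5 CPM to 61.5, 68.99 and 70.7 CPM (-0.39 ± 0.09, adjusted p = 0.00539), and was not called without pair B (0.0867). CDK1, the mitotic kinase (-0.38), TOP2A, which untangles chromosomes (-0.38), and the motor KIF11 (-0.31) fell. CCNB1 (0.12), PLK1 (0.06) and MKI67 (0.00), the gene of the proliferation antigen Ki-67, did not pass the test, with adjusted p of 0.305, 0.679 and 0.980. MKI67 stood at 544, 816 and 616 CPM with DMSO and 585, 778 and 606 CPM with prexasertib, and passed the test only with the exon length correction, at an adjusted p of 0.0386, among the alternatives run. The 7 lower calls became 3 without pair B and 3 without pair C, and the 3 higher calls became 8 without pair A and 1 without pair C.

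The promoter of CDC20 is shown because it holds the cell cycle homology region, here searched as TTTGAA on both strands, which many G2/M genes carry near their start. The stretch runs from 150 bases before the RefSeq start to the first base that the count table's annotation transcribes (GRCh38.p14, chr1:43358831-43358954, plus strand), and capitals mark the TTTGAA site.
CDC20: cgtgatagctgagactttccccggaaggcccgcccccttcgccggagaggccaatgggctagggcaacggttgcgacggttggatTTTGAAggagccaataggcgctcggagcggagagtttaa
All 10 called G2/M genes had a promoter in the RefSeq table, taken as 250 bases before to 50 after the start. TTTGAA was present in 8 of these 10 and in 11 of the 19 promoters found for G2/M genes that were not called, against 15.4% of all 27305 promoters in the table. CCAAT was present in 8 of 10 and 16 of 19, against 35.7%. The E2F motif TTTNNCGC was present in 6 of 12 promoters of called E2F genes and in 19 of 30 promoters of those not called, against 6.90% of all promoters. A match describes the sequence and shows no binding.

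Of 35 genes of homologous recombination and the Fanconi anemia pathway 7 fell and none rose, with a median of -0.28. Of all tested genes 8.18% fell and 5.72% rose. FANCC, a subunit of the Fanconi core complex, stood at 37.1, 35.5 and 31.4 CPM with DMSO and 18.9, 25.5 and 23.1 CPM with prexasertib. Its treated values were all lower, with a change of -0.62 ± 0.13 (adjusted p = 0.00177). POLQ, the polymerase of end joining on which recombination-deficient cells rely, went from 23.95, 38.4 and 29.4 CPM to 17.1, 25.7 and 19.3 CPM (-0.56 ± 0.13, adjusted p = 0.00325), with overlapping groups, and was not called without pair C (0.111). BRIP1, a helicase that binds BRCA1 (-0.55), FANCI and FANCD2, the pair that is ubiquitinated at stalled forks (-0.50 and -0.40), BLM, a helicase (-0.39), and BRCA1 itself (-0.29) fell. The 7 lower calls became 2 without pair C and 4 with the exon length correction.

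The p53 list had 8 higher and 2 lower calls among 27 tested genes and a median of 0.10. CDKN1A, which encodes the CDK inhibitor p21, lies at chr6:36676460-36687339. It stood at 4.81, 6.34 and 8.43 CPM with DMSO and 18.4, 18.6 and 21.4 CPM with prexasertib, so every treated library was above every DMSO library, and the change was 1.58 ± 0.18 (adjusted p = 6.89e-07). GADD45A, a stress protein that binds p21 and PCNA, went from 55.7, 35.5 and 47.1 CPM to 112, 106 and 108 CPM (1.26 ± 0.10, adjusted p = 1.31e-09). SERTAD1 (1.21), SESN2, a sestrin that restrains mTORC1 (0.79), AEN, a nuclease of apoptosis (0.68), and the death receptors TNFRSF10A (0.79) and TNFRSF10B (0.30) rose. MDM2, the p53 ubiquitin ligase, changed by -0.13 ± 0.09 (adjusted p = 0.379) and was not called. CCNG1 (-0.29) and BTG2 (-0.68), both p53 targets, fell.

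In the apoptosis list 6 of 29 tested genes rose and 2 fell, with a median of 0.08. PMAIP1, which encodes the BH3-only protein NOXA, stood at 14.4, 20.2 and 23.5 CPM with DMSO and 25.7, 39.8 and 41.1 CPM with prexasertib. All treated values were higher (0.88 ± 0.13, adjusted p = 1.92e-05). TNFSF10, the ligand TRAIL, went the other way (-1.25 ± 0.32, adjusted p = 0.00889) with overlapping groups and was not called without pair B (0.305). APAF1, the apoptosome scaffold, fell (-0.59), and BAK1, a pore-forming protein of mitochondria, rose (0.40). The 6 higher calls became 3 without pair B, 2 without pair C and 3 in DESeq2.

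Immediate early genes, which cells transcribe within minutes of a growth or stress signal, rose in COV362. Of 27 tested members of the AP-1 and immediate early list 18 rose and none fell, with a median of 0.68, beside 5.72% higher and 8.18% lower of all tested genes. EGR1, a zinc finger transcription factor at chr5:138465492-138469315, stood at 0.352, 1.95 and 2.07 CPM with DMSO and 25.5, 24.00 and 25.1 CPM with prexasertib. The treated libraries lay close together, far above the DMSO libraries, of which A was the lowest. The log2 fold change of 3.96 ± 0.25 (adjusted p = 1.64e-11) was the largest among called genes whose mean was 5 CPM or more. ATF3, a stress-induced member of the ATF family, at chr1:212565334-212620777, went from 15.3, 10.9 and 13.3 CPM to 97.4, 86.7 and 86.4 CPM (2.80 ± 0.11, adjusted p = 9.68e-16). The AP-1 subunits FOS (1.69), FOSB (1.46), JUN (0.41) and FOSL1 (0.34) rose, as did KLF4 (1.17), the nuclear receptor NR4A1 (1.09) and the EGF receptor ligand HBEGF (0.84).

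The start regions of 3 of the genes that rose most and hold a motif bound by factors of these families are printed here, each from RefSeq on GRCh38.p14, 5′ to 3′ toward the start of transcription, with the motif in capitals. EGR1 (chr5:138465329-138465478, plus strand) holds a pair of CArG boxes, the site of serum response factor, 105 and 83 bases before its start. IL11 (chr19:55370464-55370613, minus strand) and CXCL8 (chr4:73740419-73740505, plus strand) hold an AP-1 site, searched as TGANTCA on both strands, 96 and 137 bases before their starts.
EGR1: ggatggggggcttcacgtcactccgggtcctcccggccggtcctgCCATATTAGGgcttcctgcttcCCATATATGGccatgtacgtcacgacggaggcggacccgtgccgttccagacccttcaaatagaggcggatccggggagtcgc
IL11: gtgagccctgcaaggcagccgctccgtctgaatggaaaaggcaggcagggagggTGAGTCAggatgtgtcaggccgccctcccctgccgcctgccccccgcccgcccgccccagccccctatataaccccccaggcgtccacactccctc
CXCL8: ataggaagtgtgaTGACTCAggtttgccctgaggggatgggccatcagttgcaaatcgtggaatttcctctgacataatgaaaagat
The CArG box occurred in 1.29% of the 27305 promoters of the table and TGANTCA in 7.76%. Among promoters of tested genes the shares were 1.03% and 4.38%. Of the other named genes, SLC3A2 and DDIT3, which rose, and PDE3A, which fell, held TGANTCA. In the whole AP-1 and immediate early list, 0 of the 14 called genes that matched a promoter and 1 of the 7 others held TGANTCA. Only 10555 of the 13302 tested genes had a promoter in the table, so no share is given over all called genes.

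Beside these, genes that restrain MAP kinase signalling had 3 higher and 1 lower call among 15 and a median of 0.23. DUSP1, a phosphatase of MAP kinases, stood at 16.8, 14.6 and 22.7 CPM with DMSO and 34.6, 30.7 and 38.6 CPM with prexasertib (0.95 ± 0.13, adjusted p = 8.95e-06). SPRY1, a Sprouty protein that blocks receptor signalling to Ras, went from 21.1, 17.2 and 13.3 CPM to 10.2, 8.28 and 9.03 CPM (-0.89 ± 0.18, adjusted p = 9.56e-04). Neither gene's groups overlapped.

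Of 27 tested members of the cytokine and NF-kB target list 14 rose, none fell and 13 were not called, with a median of 0.54. DESeq2 called 9 of them higher. CXCL8, the neutrophil chemokine interleukin-8, at chr4:73740506-73743716, stood at 7.87, 12.1 and 12.8 CPM with DMSO and 37.97, 58.6 and 54.3 CPM with prexasertib. Each treated library was at least 2-fold above every DMSO library (2.20 ± 0.13, adjusted p = 3.16e-12). IL11, a cytokine of the interleukin-6 family that is not in the list, at chr19:55364382-55370463, went from 3.99, 2.96 and 4.09 CPM to 30.9, 19.2 and 21.5 CPM (2.66 ± 0.19, adjusted p = 1.48e-10). TRAF1, a signalling adaptor of TNF receptors, went from 2.47, 6.23 and 5.03 CPM to 10.2, 16.7 and 18.1 CPM (1.72 ± 0.21, adjusted p = 1.43e-06).

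ICAM1, an adhesion receptor for leukocytes, rose by 1.56 ± 0.25 (adjusted p = 1.00e-04). The chemokines CXCL3 (2.75), CCL20 (2.24) and CCL5 (1.22), the cytokines IL6 (1.29) and LIF (0.53), the NF-kB subunits RELB (1.47) and NFKB2 (0.90), and TNFAIP3, the deubiquitinase A20 that limits the pathway (0.95), rose as well. CXCL3 stood at only 0.352, 0.211 and 0.314 CPM with DMSO and 1.92, 2.13 and 1.78 CPM with prexasertib. DMBT1, a secreted scavenger receptor of mucosal surfaces outside the list, went from 2.11, 2.22 and 3.40 CPM to 5.04, 13.01 and 16.00 CPM (2.13 ± 0.26, adjusted p = 1.94e-06).

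**Figure D2:**
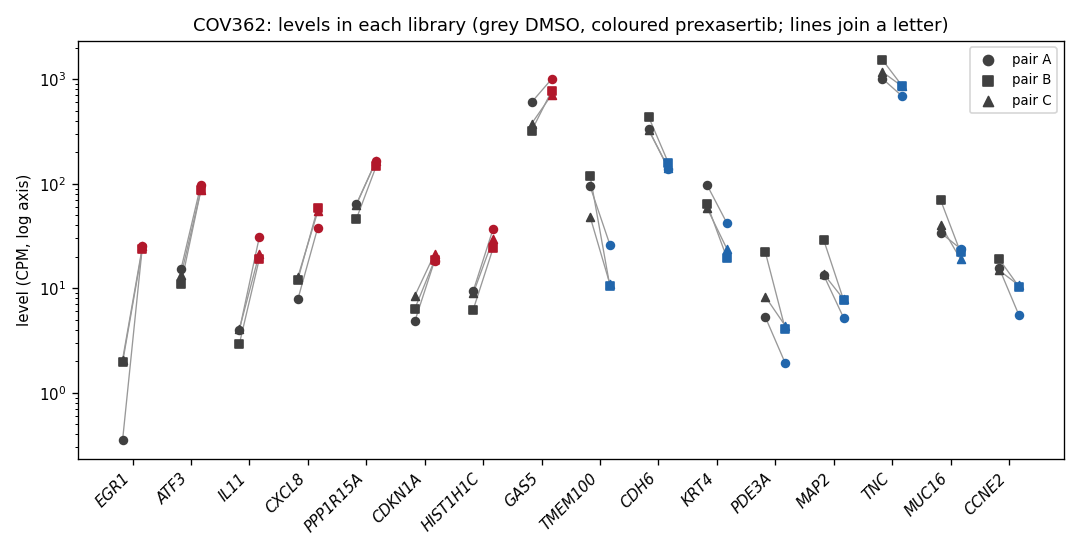
Levels (CPM, log axis) of 16 genes in each COV362 library; grey symbols are DMSO, coloured symbols prexasertib (red where the gene was called higher, blue where lower), symbol shapes give the letter and grey lines join libraries of 1 letter. EGR1 rises from between 0.352 and 2.07 CPM to between 24.0 and 25.5 CPM, and TMEM100 falls in every pair.

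Interferon response genes were also higher: 23 of 42 rose and none fell, with a median of 0.55. IFIT3, an antiviral tetratricopeptide protein, stood at 52.5, 84.6 and 65.96 CPM with DMSO and 115, 163 and 142 CPM with prexasertib (1.06 ± 0.09, adjusted p = 1.50e-09). MX1, an antiviral GTPase, went from 16.2, 28.7 and 23.8 CPM to 45.01, 62.9 and 57.1 CPM (1.27 ± 0.11, adjusted p = 1.08e-08). In both genes the groups did not overlap, and the A library was the lowest of its group. IFIT1 (0.67), IFIT2 (1.01), OASL (1.01), the RNA sensor IFIH1 (0.89), the ubiquitin-like modifier ISG15 (0.88) and RSAD2 (0.83) rose.

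The members with the largest changes were low in level. CXCL11, a chemokine (2.43), had 0, 0.581 and 0.0629 CPM with DMSO, and MX2 (1.88 ± 0.59, adjusted p = 0.0340) had 0.470, 0.686 and 0.189 CPM. MX2 was not called without pair B (0.0945) or pair C (0.242), and IRF7, the factor that amplifies type I interferon (1.68 ± 0.40, adjusted p = 0.00521), was not called without pair C (0.124). The 23 calls became 12 without pair C. Among these libraries PTPRC had 1 count and CD3E had 0, while CD68 was higher with prexasertib, and its part in the interferon calls was not tested.

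Of 16 tested nucleic acid sensing genes 2 rose and 1 fell, with a median of -0.12. IFI16, a nuclear DNA sensor, stood at 19.7, 33.6 and 23.4 CPM with DMSO and 41.6, 65.2 and 62.03 CPM with prexasertib (1.15 ± 0.12, adjusted p = 9.17e-08). IRF3, the factor downstream of the sensors, went from 19.5, 12.2 and 16.5 CPM to 34.6, 16.6 and 20.1 CPM (0.51 ± 0.15, adjusted p = 0.0192), with overlapping groups, and was not called without pair A (0.0795). MAVS, the adaptor of RNA sensors, fell (-0.33).

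Class I antigen presentation genes showed 5 rises and no fall among 18, with a median of 0.20. HLA-B stood at 104, 111 and 133 CPM with DMSO and 173, 175 and 215 CPM with prexasertib (0.69 ± 0.08, adjusted p = 5.24e-07). HLA-C (0.29), the shared light chain B2M (0.26) and HLA-E (0.38) rose, and HLA-E was not called without pair C (adjusted p = 0.0826). The HLA genes resemble each other closely, so reads may be split between them. The 5 calls became 3 without pair B, 1 without pair C and 8 with the exon length correction.

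The integrated stress response, in which phosphorylation of eIF2 raises translation of ATF4, showed 8 rises and 1 fall among 28 genes with a median of 0.16. PPP1R15A, which encodes GADD34, the subunit that directs a phosphatase back to eIF2, lies at chr19:48872392-48876062. It stood at 63.6, 45.99 and 62.9 CPM with DMSO and 166, 147 and 166 CPM with prexasertib, with all treated values higher (1.49 ± 0.09, adjusted p = 3.16e-12). DDIT3, the transcription factor CHOP, went from 77.02, 37.4 and 45.8 CPM to 154, 113 and 120.0 CPM (1.33 ± 0.10, adjusted p = 3.98e-10), and TRIB3, a pseudokinase induced by CHOP, from 54.8, 26.9 and 36.2 CPM to 121, 59.9 and 69.2 CPM (1.08 ± 0.10, adjusted p = 1.18e-08). The 8 rises became 5 without pair C, and the 1 fall became 3 without pair A.

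The amino acid transporter subunit SLC3A2 stood at 313, 252 and 274 CPM with DMSO and 477, 403 and 470.4 CPM with prexasertib (0.69 ± 0.07, adjusted p = 1.78e-07). Genes nearer to protein folding changed less: HSPA5, the chaperone BiP, rose by 0.22 and PDIA4, a disulfide isomerase, fell (-0.24). The cAMP response element TGACGTCA, which ATF family factors bind, occurred in 1.98% of all promoters in the table and 3.33% of those of tested genes. Of the named genes, HIST1H4H, DUSP1, RPL18 and NDUFB2, which rose, and CCNA2, which fell, held it. The PPP1R15A promoter is shown because it holds this element 58 bases before the RefSeq start (chr19:48872271-48872391, plus strand, site in capitals).
PPP1R15A: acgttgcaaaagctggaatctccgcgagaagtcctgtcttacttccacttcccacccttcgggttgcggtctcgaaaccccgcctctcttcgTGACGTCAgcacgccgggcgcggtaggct

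Other stress lists held fewer calls. In the NRF2 list 5 of 22 rose and none fell, led by HMOX1, heme oxygenase, at 3.64, 4.38 and 6.10 CPM with DMSO and 16.5, 7.57 and 10.99 CPM with prexasertib (1.21 ± 0.24, adjusted p = 0.00111). The ferritin chains FTL (0.35) and FTH1 (0.22) rose, and so did GCLM, a subunit of the glutathione synthesis enzyme (0.39), which was not called without pair C (0.166). In the lysosome and autophagy list 6 of 30 rose and 2 fell: SQSTM1, the autophagy receptor p62, went from 576, 515 and 613 CPM to 1026, 854 and 1147 CPM (0.82 ± 0.07, adjusted p = 2.98e-09), and MAP1LC3B, the autophagosome protein LC3B, from 55.1, 38.7 and 40.4 CPM to 78.3, 69.8 and 73.3 CPM (0.74 ± 0.10, adjusted p = 8.23e-06). Both genes were higher in every treated library. Among heat shock chaperones 4 of 23 rose and 1 fell. HSPB8 (0.88 ± 0.15, adjusted p = 1.87e-04) and DNAJB2 (0.51 ± 0.12, adjusted p = 0.00374) were the furthest of those called with a mean of at least 1 CPM. The NRF2 calls became 8 without pair A, 3 without pair B and 2 without pair C. The heat shock rises became 7 without pair A and 2 without pair B, and the 1 fall became 3 with the exon length correction.

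Histone genes rose in these polyadenylated libraries. Of 73 replication-dependent histone genes in the table only 12 had enough counts to be tested, and all 12 were called higher, which the filter favours, since genes that are high in 1 group pass it. DESeq2 called 7 of them higher. Summed over all 73, of which 50 had a count, their level was 35.1, 31.2 and 41.9 CPM in DMSO libraries A, B and C and 134, 101 and 128 CPM with prexasertib, so the groups did not overlap. HIST1H1C, a linker histone at chr6:26055740-26056471, stood at 9.39, 6.23 and 8.93 CPM with DMSO and 36.9, 24.1 and 29.4 CPM with prexasertib (1.87 ± 0.15, adjusted p = 1.50e-09). HIST1H2BD, a core histone, went from 1.41, 3.06 and 3.52 CPM to 11.8, 10.4 and 13.5 CPM (2.12 ± 0.25, adjusted p = 1.26e-06).

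HIST1H2BG (3.36 ± 0.61, adjusted p = 3.86e-04) and HIST1H4H (3.24 ± 0.45, adjusted p = 1.40e-05) showed the largest folds from levels under 1 CPM. Most mRNAs of these genes end in a stem-loop and carry no poly(A) tail, and the kit selects polyadenylated RNA, so a difference in tailing and one in transcript number cannot be told apart here. The copies are also nearly identical. HIST1H4H is shown for its TGACGTCA site, 131 bases before the start (chr6:26285535-26285684, minus strand, GRCh38.p14, site in capitals), which 2 of the 10 called histone genes with a promoter held. CCAAT was in 9 of those 10.
HIST1H4H: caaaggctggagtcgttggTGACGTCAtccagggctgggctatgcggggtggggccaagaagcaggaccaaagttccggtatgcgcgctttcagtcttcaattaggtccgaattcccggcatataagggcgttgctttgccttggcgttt

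Host genes of small nucleolar RNAs and other long noncoding RNAs had 9 rises and no fall among 19, with a median of 0.40. The spliced RNAs of these host genes end early in reading frames and are usually removed by nonsense-mediated decay. GAS5, at chr1:173863901-173867987, stood at 603, 322 and 376 CPM with DMSO and 1000.4, 767 and 707 CPM with prexasertib (0.96 ± 0.08, adjusted p = 2.98e-09). SNHG12 went from 11.6, 5.60 and 7.55 CPM to 31.5, 17.6 and 21.8 CPM (1.54 ± 0.16, adjusted p = 1.78e-07), and SNHG15 from 69.04, 31.5 and 44.7 CPM to 141, 83.1 and 107 CPM (1.23 ± 0.09, adjusted p = 6.07e-10). In these 3 genes the treated groups lay above the DMSO groups.

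ZFAS1 rose in each pair, from 835, 393 and 464 CPM to 1125, 730.0 and 708 CPM (0.64 ± 0.08, adjusted p = 1.55e-06), but the groups overlapped because both A libraries were high. The same held for C6orf48, with 287, 151 and 189 CPM and 416, 278 and 279.5 CPM (0.66 ± 0.08, adjusted p = 1.35e-06). SNHG1 (0.92) and NEAT1 (0.52), the scaffold of paraspeckles, rose too. Of all 485 tested genes that RefSeq marks as long noncoding 24 (4.95%) rose and 7 (1.44%) fell. Of 12338 protein-coding genes 723 (5.86%) rose and 1070 (8.67%) fell. The share that rose was no larger among long noncoding genes, but their median log2 fold change was 0.09, against -0.03 for protein-coding genes. These shares take no account of expression level. Of all tested genes, 2.70% were called higher at 1 to 5 CPM and 8.64% over 100 CPM.

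TMEM100, a membrane protein at chr17:55719627-55732121, stood at 94.5, 119.6 and 48.5 CPM with DMSO and 26.1, 10.4 and 10.9 CPM with prexasertib. It fell in all 3 pairs, with DMSO C the lowest of its group and prexasertib A the highest of the other (-2.50 ± 0.18, adjusted p = 2.16e-10). CDH6, a cadherin of kidney and ovarian tumours at chr5:31193655-31329146, went from 332, 439 and 329 CPM to 139, 158 and 141 CPM (-1.32 ± 0.08, adjusted p = 3.16e-12), with tight treated values.

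KRT4, a keratin of stratified mucosa at chr12:52806543-52814116, went from 97.7, 64.3 and 58.9 CPM to 42.2, 19.6 and 23.9 CPM (-1.40 ± 0.11, adjusted p = 1.12e-09). EHF, an epithelial ETS factor, went from 6.58, 10.8 and 7.29 CPM to 2.64, 4.08 and 2.93 CPM (-1.35 ± 0.25, adjusted p = 4.77e-04). CLIC5, a chloride channel protein (-1.74 ± 0.25, adjusted p = 2.58e-05), and DACH1, a nuclear cofactor of development (-1.46 ± 0.25, adjusted p = 1.73e-04), fell with no overlap of the groups.

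PDE3A, a cyclic nucleotide phosphodiesterase at chr12:20369245-20684107, stood at 5.28, 22.1 and 8.30 CPM with DMSO and 1.92, 4.08 and 4.37 CPM with prexasertib (-1.65 ± 0.26, adjusted p = 7.96e-05). DMSO B was far above the other DMSO libraries. MAP2, a microtubule-binding protein at chr2:209424047-209734110, went from 13.3, 28.8 and 13.6 CPM to 5.20, 7.69 and 7.83 CPM (-1.36 ± 0.20, adjusted p = 2.41e-05). KLHL14, RCAN2, a calcineurin regulator, MXRA5, a matrix protein, and SLC38A4, an amino acid transporter, fell by 1.35, 1.33, 1.37 and 1.38 on the log2 scale.

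Of 16 tested ovarian lineage genes 6 (37.5%) fell and 1 rose, with a median of -0.28. MUC16, which encodes the CA125 antigen, stood at 33.9, 69.5 and 40.2 CPM with DMSO and 23.9, 22.1 and 18.99 CPM with prexasertib (-1.11 ± 0.15, adjusted p = 6.88e-06). EMX2 (-0.87), MECOM (-0.86), the estrogen receptor ESR1 (-0.81), SOX17 (-0.46) and PAX8 (-0.30), all transcription factors, fell. CRABP2, which carries retinoic acid to its receptor, went the other way, from 23.01, 17.4 and 21.8 CPM to 46.04, 36.8 and 46.2 CPM (1.06 ± 0.12, adjusted p = 5.22e-07). The 6 lower calls became 3 without pair C. In the broader epithelial list 4 of 28 rose and 4 fell, and KRT17 (1.57 ± 0.49, adjusted p = 0.0328) was the furthest higher but was not called without pair A (0.0799) or pair C (0.249). The 4 epithelial rises became 1 without pair C.

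Matrix and mesenchymal genes had 7 falls and 2 rises among 27, with a median of -0.21. TNC, the matrix glycoprotein tenascin-C, stood at 1016, 1541 and 1178 CPM with DMSO and 689, 865 and 855 CPM with prexasertib (-0.62 ± 0.07, adjusted p = 1.26e-06). MMP2, a gelatinase, went from 255, 242 and 213 CPM to 175, 109 and 130.0 CPM (-0.80 ± 0.09, adjusted p = 6.01e-07). The groups of both did not overlap. The 2 that rose, SNAI2 (1.90) and SNAI1 (0.82), are repressors of E-cadherin. SNAI2 was not called without pair B (0.167) or pair C (0.0609), nor SNAI1 without pair A (0.109) or pair C (0.0774). The 7 falls became 4 without pair C and 4 with the exon length correction, and the 2 rises became 0 without pair C.

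Outside the list, the matrix proteins SPON1 (-0.98 ± 0.09, adjusted p = 1.18e-08) and MFAP5 (-0.59 ± 0.08, adjusted p = 6.67e-06) and the adhesion protein TNS3 (-0.63 ± 0.08, adjusted p = 1.50e-06) fell with no overlap. TGFBR2, the type II receptor of TGF-beta, stood at 275, 345 and 272 CPM with DMSO and 172, 208 and 184 CPM with prexasertib (-0.66 ± 0.07, adjusted p = 6.09e-07). In the TGF-beta and BMP list 5 of 21 fell and 4 rose, with a median of -0.05. SMAD6, an inhibitory SMAD (-1.001 ± 0.19, adjusted p = 6.38e-04), ID1 (-0.38) and ID2 (-0.66), targets of BMP signalling, fell, and INHBA, an activin subunit (0.66), and GDF15, a stress cytokine (1.71), rose. GDF15 was not called without pair B (0.286) or pair C (0.268), and the 4 rises became 0 without pair B, 1 without pair C and 0 in DESeq2.

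Of 25 YAP and TEAD genes 8 fell and 2 rose, with a median of -0.09. YAP1 itself (-0.27), its partner TEAD1 (-0.38) and PTPN14, a phosphatase that holds YAP in the cytoplasm (-0.56 ± 0.09, adjusted p = 5.72e-05), fell, and GADD45B (0.55 ± 0.12, adjusted p = 0.00268) rose. Of 42 chromatin regulators 12 fell and 2 rose, with a median of -0.17. CHD9, a remodeller, stood at 20.5, 64.4 and 35.2 CPM with DMSO and 13.3, 41.9 and 28.3 CPM with prexasertib (-0.51 ± 0.12, adjusted p = 0.00400) and was not called without pair B (0.0770), while KDM6B, a histone demethylase induced by inflammation, rose from 9.28, 14.2 and 11.5 CPM to 18.1, 24.4 and 31.4 CPM (1.07 ± 0.16, adjusted p = 3.15e-05). These counts depended on exon length. With the exon length correction 1 chromatin gene and 4 YAP genes were called lower and 5 chromatin genes higher, and the chromatin falls became 2 without pair B and 2 without pair C, and the YAP falls 5 and 2.

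Few members of the housekeeping lists were called. Of 83 ribosomal protein genes 2 rose, RPS12 (0.27) and RPL18 (0.21), with a list median of 0.04, and neither was called without pair C (adjusted p = 0.115 and 0.408). Without pair A there were 14 rises and without pair B 6, and with the exon length correction 4 ribosomal protein genes were called lower. Of 78 nuclear genes of the respiratory chain 3 rose, and of 37 proteasome genes 4 rose. NDUFB2 (0.28), NDUFB9 (0.28), PSMC4 (0.29) and PSMD8 (0.28) were the furthest of the called members, and none of them was called without pair C (adjusted p = 0.136, 0.133, 0.195 and 0.205), nor NDUFB2 without pair B (0.132). The 3 and 4 calls became 10 and 8 without pair A, 6 and 2 without pair B, 0 and 0 without pair C, and 0 and 2 with the exon length correction. No glycolysis or hypoxia gene fell and 3 of 28 rose: VEGFA, the vascular growth factor (0.40), ADM, adrenomedullin (1.05), which was not called without pair C (0.136), and SLC2A3, a glucose transporter (1.20), which was not called without pair B (0.192). Without pair C 1 such call was left.

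Of 17 serine and one-carbon genes 4 fell. SHMT1, a serine hydroxymethyltransferase (-0.40), was not called without pair B (0.0868) or pair C (0.153), and PPAT, the first enzyme of purine synthesis (-0.28), not without pair A (0.209) or pair C (0.308). The 4 calls became 1 without pair A, 0 without pair C and 2 in DESeq2. In the splicing list 4 of 29 rose and 4 fell, with the kinases CLK1 (0.50) and CLK4 (0.52) the furthest higher. CLK1 was not called without pair A (0.0523) or pair B (0.135), nor CLK4 without pair B (0.242) or pair C (0.0827). The 4 splicing rises became 1 without pair B, 2 without pair C and 2 in DESeq2, and the 4 falls 2 without pair A and 0 without pair C.

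**Figure D3:**
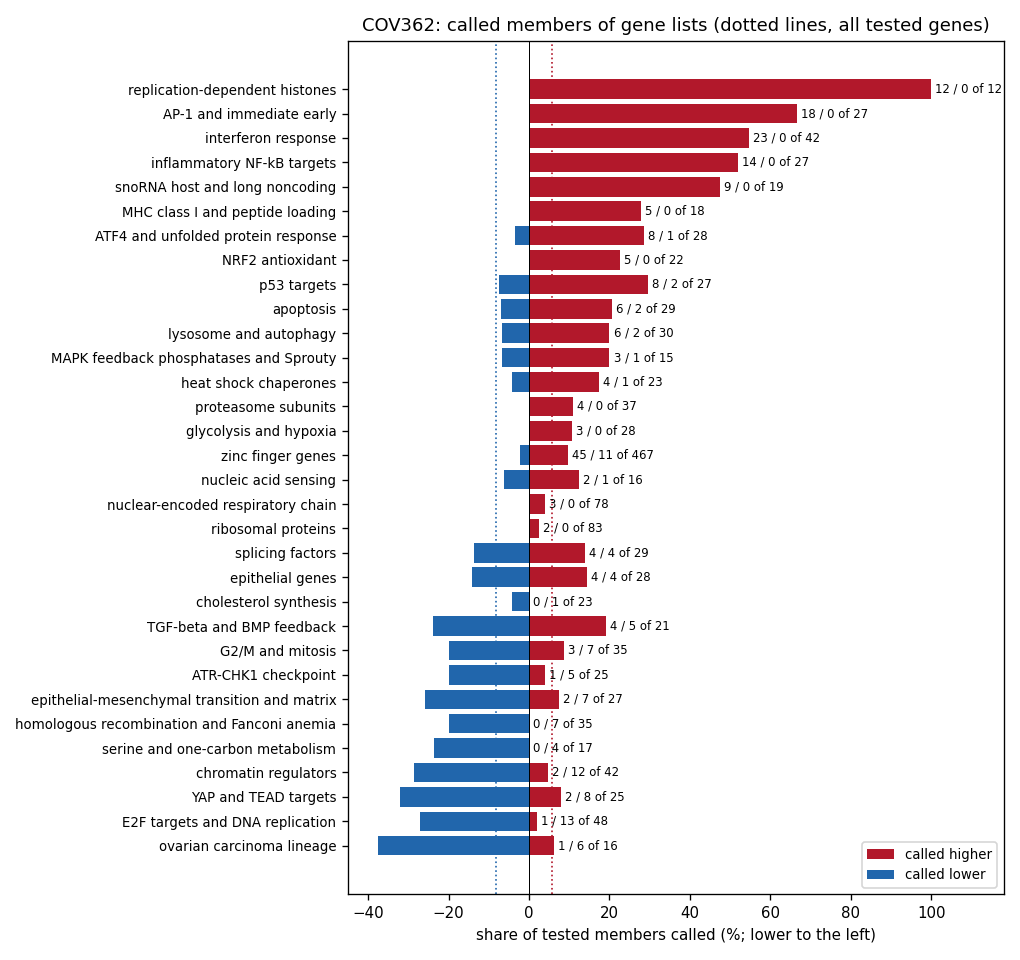
Share of the tested members of each gene list called higher (red, to the right) and called lower (blue, to the left) in COV362, with the counts higher / lower of tested members beside each bar; dotted lines give the shares over all tested genes (5.72% and 8.18%). The histone, immediate early, interferon and NF-kB lists have the longest red bars, and the ovarian lineage and YAP lists the longest blue bars.

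Gene length separated the genes that rose from those that fell. The genomic span, from the first to the last exon base, had a median of 13098 bases among genes called higher, 101840 among genes called lower and 28573.5 among all tested genes on a single sequence. Exon lengths had medians of 2525, 5378.5 and 3350.5 bases in the same order, and exon numbers medians of 7, 15 and 9. Of 1380 genes spanning under 5 kb, 10.7% rose and 1.96% fell. Of 146 genes spanning over 500 kb, 0.685% rose and 37% fell, and 89% had a negative log2 fold change, with a median of -0.473.

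The share that fell went up with each class of span, and the share that rose went down to 0.141% at 200 to 500 kb. From 20 to 50 kb 5.31% rose and 5.08% fell, and from 100 to 200 kb 1.15% rose and 20.2% fell. Over genes, which are not independent, the rank correlation of log2 fold change with span was -0.350, and it was -0.289, -0.266 and -0.270 in pairs A, B and C taken alone. The 1 gene over 500 kb that rose was CREB5, a CRE-binding factor (0.81). Among the longest that fell, chosen for their span, were PTPRD, a receptor phosphatase (-0.81), PRKG1, a cGMP-dependent kinase (-1.32), AUTS2 (-0.41), GPC6, a glypican (-0.93), and CDH18, a cadherin (-2.45).

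Span and exon length go together, and the letters differed along exon length, so the relation was also read with exon length held. Among genes with exons of 2 to 4 kb in all, 2.49% fell where the span was under 5 kb and 33.3% where it was over 500 kb (7 of 21 genes). With the exon length correction in the fit the correlation was -0.197, and the falls went from 3.33% of the shortest to 28.1% of the longest genes. Among genes with a mean over 20 CPM the falls went from 3.5% to 73.7% (28 of 38).

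**Figure D4:**
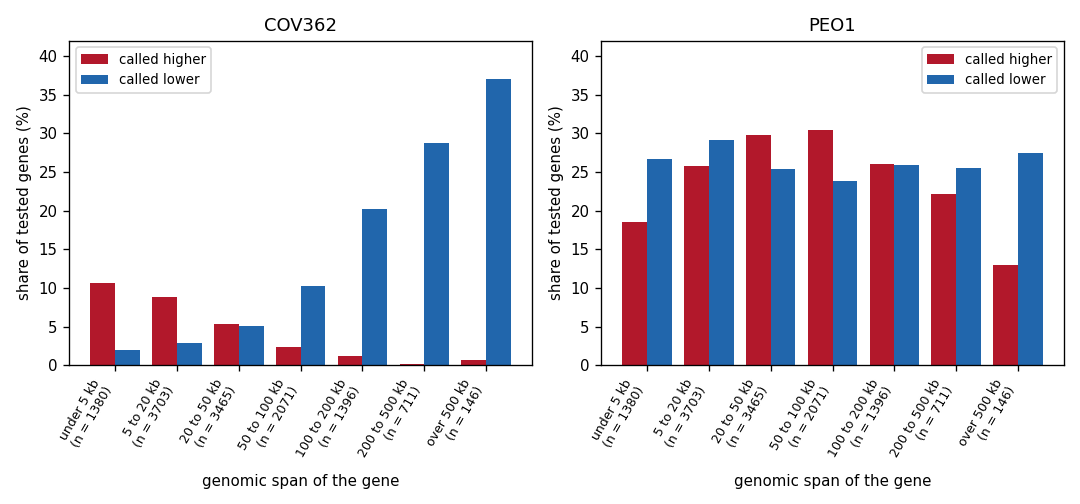
Share of tested genes (%) called higher (red) and lower (blue) by the genomic span of the gene, in COV362 on the left and in PEO1 on the right, with the number of genes under each class. In COV362 the blue bars climb from 1.96% to 37% while the red bars go from 10.7% to 0.685%; in PEO1 the blue bars stay between 23.9% and 29.1%.

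In PEO1 the share that fell showed no such order, with 26.7% of genes under 5 kb and 27.4% of genes over 500 kb. The share that rose was 18.6% under 5 kb and 30.5% at 50 to 100 kb. From there it went down with each class of span, to 13% over 500 kb. The median log2 fold change went from 0.0808 at 50 to 100 kb to -0.169 over 500 kb. The difference between the lines in this relation was not tested. Zinc finger genes, many of them in clusters on chromosome 19, had 45 rises and 11 falls among 467 tested in COV362, with a median of 0.12, and 282 rises and 15 falls in PEO1. Of all genes tested in COV362, 26.4% rose and 26.6% fell in PEO1. The COV362 rises were 72 without pair A, 28 without pair B and 17 without pair C, and the falls were 7 without pair B, 2 without pair C, 6 in DESeq2 and 7 with the exon length correction. ZNF311 (1.89) and ZNF878 (1.73) were the furthest higher, and ZNF311 was not called without pair B (0.136), nor ZNF878 without pair A (0.0553), pair B (0.181) or pair C (0.209).

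The COV362 changes were then set beside those of PEO1, which shares no library with them. PEO1 and the difference between the changes were tested in a fit of all 12 libraries. In it 7446 of 14498 genes (51.4%) were called in PEO1, 25.8% higher and 25.5% lower, and the difference was called for 4906 (33.8%). The COV362 calls set beside them are those of the fit of 6 libraries. The fit of 12 called 832 genes higher and 1145 lower in COV362. Of the 761 genes that rose in COV362, 497 (65.3%) rose and 60 fell in PEO1, where 26.4% of the same tested genes rose. Of the 1088 that fell, 529 (48.6%) fell and 161 rose in PEO1, where 26.6% fell. The shared calls were 14.2% of the PEO1 rises and 14.9% of the PEO1 falls. The difference itself was called for 841 of the 1849 COV362 genes. Without the letter blocks the difference was called for 885 genes and PEO1 for 4249, and whether the letters pair in PEO1 was not checked.

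Several of the genes named above rose in both lines. CXCL8 rose by 2.20 in COV362 and by 5.18 in PEO1, a difference of 2.98 ± 0.19 (adjusted p = 3.97e-13). ATF3 (2.80 and 4.04), PPP1R15A (1.49 and 2.92), CDKN1A (1.58 and 2.95) and GADD45A (1.26 and 2.61) differed likewise, with adjusted p of the difference of 8.16e-08, 1.77e-10, 1.87e-05 and 5.48e-09. EGR1 rose by a larger fold in COV362 (3.96 against 2.82, adjusted p = 0.00291), where its DMSO level was low. Its mean went from 1.46 to 24.9 CPM in COV362 and from 8.23 to 58.0 CPM in PEO1. Without the letter blocks this difference was not called (adjusted p = 0.113). For SQSTM1, SNHG12, SLC3A2, HLA-B and ICAM1 the difference did not pass the test, with values of 0.06 ± 0.11, 0.15 ± 0.22, 0.09 ± 0.11, 0.16 ± 0.11 and -0.25 ± 0.20.

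Some genes went in opposite directions. CDC20 rose in COV362 and fell in PEO1 (0.46 and -0.79), and EHF (-1.35 and 1.01), MAP2 (-1.36 and 0.52), TNC (-0.62 and 0.76) and SPRY1 (-0.89 and 1.04) fell in COV362 and rose in PEO1. The difference was called for each, with adjusted p of 8.77e-10, 7.82e-11, 4.43e-06, 9.38e-09 and 3.19e-04. SPRY1 was low in PEO1, at a mean of 0.681 CPM with DMSO and 1.42 CPM with prexasertib. CDH6 and KRT4 fell in both lines and further in PEO1 (-3.40 and -3.13). CHEK1 changed by -0.17 in PEO1 (adjusted p = 0.118), a difference of -0.01 ± 0.13. TMEM100, PDE3A and DACH1 had 0 counts in the PEO1 DMSO libraries, so no fold is given for them there.

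**Figure D5:**
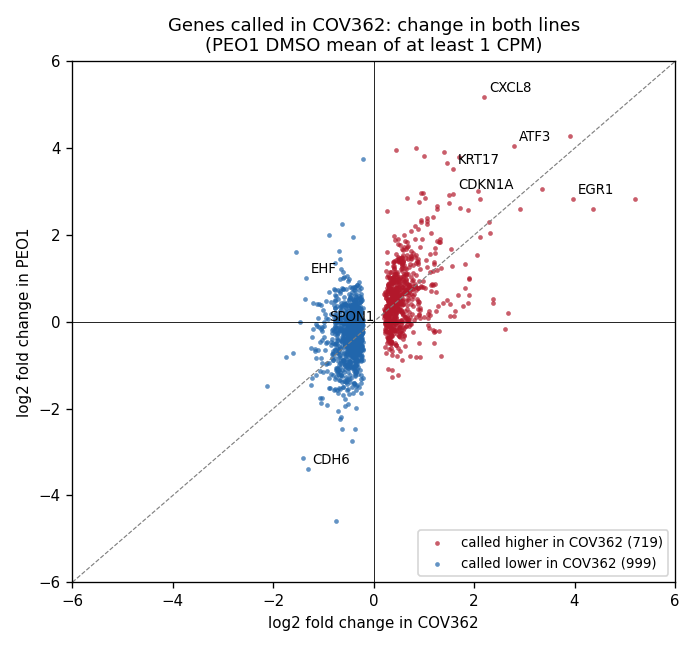
Log2 fold change in COV362 (x axis) and in PEO1 (y axis) of the 1718 genes called in COV362 whose mean in PEO1 DMSO libraries was 1 CPM or more, red where higher in COV362 and blue where lower; the dashed line marks equal change. CXCL8 and ATF3 lie above the line, EGR1 below it, and EHF in the quadrant of opposite change.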

How the data were processed

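The members of this comparison, the gene lists and the rule for named genes were chosen with earlier results of these data known. The tools named in the submitters' processing notes are STAR, Subread and featureCounts 1.4.6, with build hg38 and no roles stated. What the authors deposited is a table of counts of reads for each gene and library, not normalized, which per the file headers also holds exon coordinates and exon lengths. Per the labels' protocols, libraries were made with a TruSeq RNA v2 kit, which keeps no strand, so reads of overlapping antisense genes cannot be told apart, and near-identical copies are uncertain.

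Genes passed edgeR's filterByExpr (minimum count 10, minimum total 15) on the 6 COV362 libraries. Counts were scaled with TMM factors and tested in edgeR 4.0.16 (R 4.3.3) with the quasi-likelihood F-test on treatment plus letter (2 residual and 24.6 prior degrees of freedom), with Benjamini-Hochberg adjustment and calls at an adjusted p under 0.05. The letters were taken to pair the samples because all 3 same-letter correlations in COV362 exceeded 0.1. That rule does not show what the letters mark. PEO1, and the difference between the lines, came from 1 fit of 12 libraries with letters blocked within each line. Pairing was not checked in PEO1, so the PEO1 calls and those of the difference rest on an assumed pairing there. On simulated counts of 13131 genes the test recovered 76% of genes changed 1.5-fold and 96% of those changed 2-fold, and 3.12% of its calls were false. Those counts were drawn with the letter block built in. They cannot say whether the letters pair the real samples, and 3.12% is no false rate of the calls reported here.

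Named genes were the 12 highest and 12 lowest called genes whose mean was 5 CPM or more, with 1 direction in all 3 pairs, the 6 called genes with the highest mean CPM in each direction with at least a 1.5-fold change, the 2 furthest called genes of each of 33 lists (mean at least 1 CPM), and 7 checkpoint and cell cycle genes, 97 in all. Other list members are named to describe a list's calls. Some of these genes are not reported here. Gene positions span the outermost exons in the count table, and 424 tested genes listed on several sequences have none. Promoters and gene types are from RefSeq tables. DESeq2 1.42.0 and limma 3.58.1 (voom) served as alternatives.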

Additional observations from a re-analysis of the deposited data

Results flagged for a closer look

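The change with prexasertib differed between COV362 and PEO1, by the test of the difference itself, for the 46 named genes listed here. Each value below is the PEO1 log2 fold change minus that of COV362, so that a gene that fell in both lines and further in PEO1 has a negative value. The largest adjusted p among them was 0.0298 (edgeR quasi-likelihood test over all 14498 genes). The difference was also called for 38 of the 46 without each COV362 pair in turn, and for 21 without the letter blocks.

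Genes called in opposite directions were EHF (2.37), SPRY1 (1.93), MAP2 (1.89), CHD9 (1.46), TNC (1.38), NDUFB9 (-0.65) and CDC20 (-1.24). Of these, EHF, SPRY1, MAP2, CHD9 and TNC fell in COV362 and rose in PEO1, and NDUFB9, a respiratory chain subunit, and CDC20 rose in COV362 and fell in PEO1.

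Genes that rose in both lines and further in PEO1 were CXCL8 (2.98), KRT17 (2.00), PPP1R15A (1.44), CDKN1A (1.39), GADD45A (1.36), DUSP1 (1.36), PMAIP1 (1.27), ATF3 (1.25), CRABP2 (1.21), C6orf48 (1.18), GAS5 (0.96) and CLK1 (0.93), which include the stress genes PPP1R15A, GADD45A and ATF3 and the apoptosis gene PMAIP1. The same was found for HLA-E (0.92), TRAF1 (0.91), MAP1LC3B (0.90), ZFAS1 (0.84), GADD45B (0.84), HIST1H1C (0.71), DDIT3 (0.58), SNHG15 (0.49), DNAJB2 (0.40) and GCLM (0.38). EGR1 (-1.11) rose in both lines and further in COV362. Genes that fell in both lines and further in PEO1 were SHMT1 (-0.62), TNS3 (-0.75), CDH5 (-1.36), UPK3B (-1.36), KRT4 (-1.72) and CDH6 (-2.07), among them 2 cadherins.

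For 10 genes the change was not called in PEO1, where a missed threshold does not show that they stayed level. They were MUC16 (1.20), CCNE2 (0.97), SPON1 (0.88), POLQ (0.75), TGFBR2 (0.51), PTPN14 (0.51), PRIM2 (0.48), PPAT (0.42), IRF3 (-0.65) and RAD9A (-0.81). For 4 other named genes whose difference was called, TMEM100, PDE3A, DACH1 and HSPB8, the PEO1 DMSO libraries held 0, 0, 0 and 2 counts in all, and for DMBT1 the PEO1 prexasertib libraries held 0 counts, so no difference is given for these genes.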

How the results depend on the processing

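The letters were taken to pair the samples, and the fits differed most in whether they held the replicate block. Without the block, COV362 had 10 calls (8 higher, 2 lower), or 120 (88 and 32) in the fit of all 12 libraries, against 1849 with it, and 85 of the 97 named genes lost their call. The 97 include CHEK1, WEE1, CDC25A, CCNE1 and MKI67, which had no call to lose in the main fit. An adjusted p under 0.01 gave 946 calls (381 and 565), and a test against a 1.5-fold minimum 77 (52 and 25). Leaving out 1 pair gave 666 to 2468 calls, 298 to 1257 higher and 368 to 1211 lower, and 41.2% of all calls were higher, against 50.9% without pair A. The fit of 12 libraries with blocks gave 1977 calls, limma-voom 2093, DESeq2 1302, the RLE factors 1915, no filter on low counts 2058, a filter of 1 CPM in 3 libraries 1901 and the exon length correction 1575. The last 1575 shared 1263 with the main calls. In DESeq2, 10 of 90 named genes with an adjusted p lost their call, in limma-voom none of 97 did, and with the exon length correction 11 did. The cause of these losses was not tested.

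The rank correlation of fold change with genomic span was -0.350, against -0.366 without the block, -0.367 with 12 libraries and no block, -0.197 with the exon length correction, and -0.339 to -0.302 with 1 pair left out. The difference between the lines was called for 885 genes without the blocks, against 4906, and the PEO1 change for 4249, against 7446. WEE1 changed sign without pair B (-0.0269) and was called higher without pair A (0.31). MKI67 was called higher with the exon length correction (0.22, edgeR adjusted p = 0.0386) and in no other fit. It changed sign without the block (-0.00453), with 12 libraries with blocks (-0.00197) or without them (-0.00965), in limma-voom (-0.000618), with no filter (-0.00635) and without pair A (-0.0147), and was 0.0494 without pair C. Counts of list members with the exon length correction, and with 12 libraries and no block, were alternatives chosen after seeing the data. Between 9390790 and 18262805 counts a library, genes under about 1 CPM had wide errors, and 7691 genes had 0 counts in COV362.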

Other observations

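Among the 221 genes called in opposite directions by the 2 lines with the difference called as well, a few chosen after their values were seen stood at very different levels in each line. ANKRD1, a cardiac and muscle repeat protein that YAP induces, had 749 CPM with DMSO and 650 CPM with prexasertib in COV362 (log2 fold change -0.21, adjusted p = 0.0431), and 7.55 and 102 CPM in PEO1 (3.76). LSR, a receptor of tricellular junctions, had 3.74 and 9.66 CPM in COV362 (1.35) and 71.3 and 41.5 CPM in PEO1 (-0.79). PPARGC1A, a coactivator of mitochondrial genes, had 9.49 and 4.45 CPM in COV362 (-1.08) and 0.237 and 6.66 CPM in PEO1 (4.73).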
